A study of Mus musculus with 4 samples.

Results

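The mammary luminal and hormone response genes described here were 10 genes taken by symbol from the deposited gene table of 25413 genes: Esr1, Pgr, Prlr, Stat5a, Stat5b, Elf5, Gata3, Foxa1, Mfge8 and Csn2. All 10 had a row in the table. RNA was measured in 4 libraries of EpH4, an immortalised mouse mammary epithelial line, labelled WT for genotype and grown in 2D culture. The treatment was labelled Control in 2 libraries and PM2.5, meaning fine airborne particles, in the other 2. The sources used here do not give the particle dose, the time of exposure or whether the medium held lactogenic hormones. Because no label ties the replicates to separate cultures, p-values measure only the spread between these libraries, which may be technical.

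In the mammary gland, oestrogen and progesterone act through nuclear receptors encoded by Esr1 and Pgr, which are carried by a subset of luminal cells. Prolactin binds its receptor, Prlr, and the receptor-bound kinase JAK2 phosphorylates STAT5A and STAT5B, which then enter the nucleus and switch on milk genes such as Csn2, the gene of beta-casein. GATA3 and FOXA1 are transcription factors of the luminal lineage, ELF5 is the factor of the milk-secreting alveolar branch, and Mfge8 encodes a milk fat globule glycoprotein that also helps phagocytes take up dying cells.

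The sequences shown here carry the letters that a STAT factor binds, TTCNNNGAA, in front of the milk gene Csn2 and at the start of Cish, a feedback inhibitor of cytokine receptors that is a standard STAT5 target. They are RefSeq promoter windows of GRCm38.p6, whereas the gene positions given further on are GRCm39. The match is in capitals. The Csn2 stretch is the 250 bases before the RefSeq start (chr5:87699426-87699675, minus strand) and the Cish stretch runs from 100 bases before its start to 20 bases into the gene (chr9:107296559-107296678, plus strand).
Csn2: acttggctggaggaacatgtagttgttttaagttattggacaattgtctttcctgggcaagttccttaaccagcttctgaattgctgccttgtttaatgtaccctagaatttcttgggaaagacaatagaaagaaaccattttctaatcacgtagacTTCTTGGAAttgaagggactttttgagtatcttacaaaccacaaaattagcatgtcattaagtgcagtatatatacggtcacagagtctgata
Cish: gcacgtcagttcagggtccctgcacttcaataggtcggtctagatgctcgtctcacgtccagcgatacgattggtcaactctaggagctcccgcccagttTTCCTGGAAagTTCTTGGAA
The Csn2 match begins 93 bases before the start, and the 2 Cish matches begin at bases 1 and 12 of the gene. All 10 members had at least 1 window of 300 bases in the RefSeq table, 16 windows in all. The STAT letters, which read the same on both strands apart from the free middle bases, were in windows of 3 members: Csn2, Esr1 and Prlr. Of 32817 promoter windows of the same length, 8.29% held them. Such shares are per window, whereas a member is counted if any of its windows matches, so they are not like for like. The Esr1 match, TTCTAGGAA, was in 1 of its 2 windows and the Prlr match, with the same letters, in 1 of its 3. The forkhead letters TGTTTAC, on either strand, were in 1 window each of 2 members, Foxa1 and Prlr, and in 3.65% of all windows. The GATA letters AGATAA (11.2% of all windows) and the full palindromic oestrogen response element (0.0701%) were in no member window. A match is a description of these letters and not a bound site.

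Total counts ranged from 18548478 to 26206329 per library. CPM values are counts scaled to library size with TMM factors, and RPKM, also scaled to gene length, is as the authors deposited it. A count of 3, the limit that 0 counts allow, corresponded to 0.116 to 0.158 CPM per library. Of 12478 genes that passed the low-count filter, 39.6% were called between the groups by edgeR's quasi-likelihood test (Benjamini-Hochberg adjusted p below 0.05). The share called higher in PM2.5 was 19.2% and the share called lower was 20.4%. The 2 PM2.5 libraries lay wholly above or wholly below the 2 Control libraries for 71.0% of tested genes, above for 35.9% and below for 35.1%.

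The members split into a measured group and a group at or near 0 counts. Mfge8, Gata3, Stat5b, Stat5a and Esr1 passed the low-count filter, while Elf5, Pgr, Prlr, Foxa1 and Csn2 held 5 counts between them. Per gene length, the order of the mean over 4 libraries was Mfge8 at 69.3 RPKM, Gata3 at 23.1, Stat5b at 9.94, Stat5a at 9.46 and Esr1 at 1.79 RPKM. Mfge8 stood above 96.4% and Gata3 above 85.9% of the 17974 genes with any count, and Esr1 above 44.8%. The steps from Mfge8 to Gata3, from Gata3 to the STAT5 genes and from those to Esr1 were wider than the spread between libraries. The neighbours Stat5b and Stat5a changed places between the groups.

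**Figure D1:**
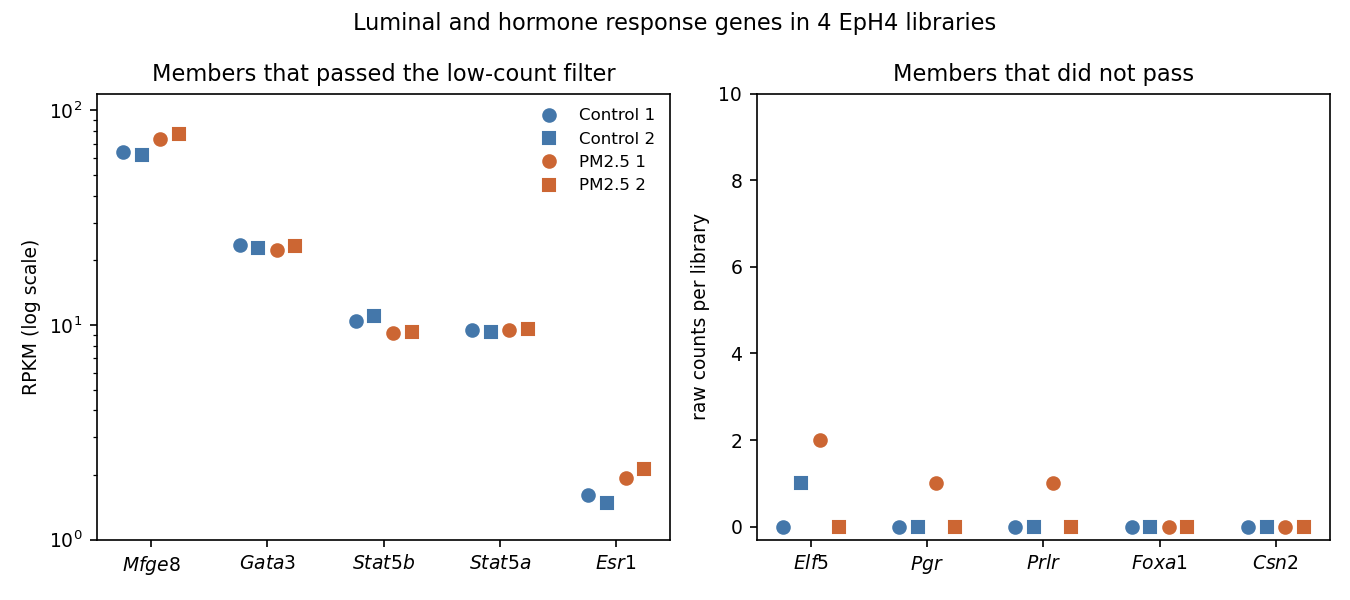
Levels of the 10 members in each library; the left axis is RPKM on a log scale for the 5 members that passed the low-count filter, the right axis is raw counts for the 5 that did not. Points are single libraries (blue Control, orange PM2.5; circles replicate 1, squares replicate 2). Mfge8 sits between 62.0 and 77.4 RPKM and Esr1 between 1.49 and 2.13, while Foxa1 and Csn2 are at 0 counts in every library.

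Among the receptors, only the oestrogen receptor gene was measured above a handful of counts. Esr1 (ENSMUSG00000019768, chromosome 10, 4561593 to 4955614, plus strand) had 287 and 358 counts in Control and 368 and 370 counts in PM2.5. On the CPM scale these were 15.1 and 13.9 against 17.8 and 19.5, so both PM2.5 libraries were above both Control libraries. Esr1 rose from 14.5 ± 0.854 to 18.7 ± 1.17 CPM (SD, n = 2 each), which is 1.29-fold or 0.37 on the log2 scale (SE 0.106, adjusted p = 0.0188 by edgeR). The call ended with DESeq2 (adjusted p = 0.0802), without Control replicate 2 (0.071), without PM2.5 replicate 2 (0.131) and with limma-trend on log2(RPKM + 0.1) (0.0574). Its log2 fold change was 0.30 without either of those libraries.

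Pgr, the progesterone receptor gene and a target of the oestrogen receptor (ENSMUSG00000031870, chromosome 9, 8899834 to 8968612, plus strand), had 0, 0, 1 and 0 counts in Control 1, Control 2, PM2.5 1 and PM2.5 2. Prlr, the prolactin receptor gene (ENSMUSG00000005268, chromosome 15, 10177324 to 10349266, plus strand), had the same pattern of 0, 0, 1 and 0 counts. Summed over the 4 libraries, 1 count was 0.0118 CPM, with an exact 95% Poisson interval of 0.0003 to 0.066 CPM that covers counting error only. At this depth neither receptor transcript was above the limit in any library, and no difference between the groups was detectable. The Prlr gene model overlaps Gm21973 on the same strand, which had 0 counts in every library.

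The transducers of the prolactin signal were both measured, and their relative level differed between the groups. Stat5b (ENSMUSG00000020919, chromosome 11, 100671557 to 100741550, minus strand) had 69.2 and 72.9 CPM in Control and 60.1 and 60.7 CPM in PM2.5, and the groups did not overlap. Stat5b fell from 71.0 ± 2.63 to 60.4 ± 0.389 CPM (SD, n = 2 each), which is 1.18-fold lower or -0.24 on the log2 scale (SE 0.065, adjusted p = 0.0156 by edgeR). Stat5a (ENSMUSG00000004043, chromosome 11, 100750177 to 100775995, plus strand), its neighbour 8627 bases away, had 47.0, 45.9, 46.0 and 46.6 CPM in the same order of libraries. Its groups overlapped, at 46.4 ± 0.764 and 46.3 ± 0.451 CPM, and its log2 fold change was -0.0025, with a 95% interval of -0.15 to 0.14 (edgeR adjusted p = 0.981). Per gene length, Stat5b was 1.09 and 1.18 times Stat5a in the Control libraries and 0.969 and 0.964 times in the PM2.5 libraries. That ratio, singled out after its values were seen, differed by -0.23 on the log2 scale, with an exact two-sided permutation p of 0.333, the smallest that 2 against 2 libraries allow.

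Of the 14 alternatives, 7 ended the call on Stat5b, against 4 for Esr1 and 2 for Mfge8. It ended with scaling to library size only (adjusted p = 0.0582), without Control replicate 2 (0.0504), PM2.5 replicate 1 (0.0812) or PM2.5 replicate 2 (0.0719), with limma-trend at either pseudocount (0.0519 and 0.0546) and with a positional correction (0.386). The correction sets each gene against the 50 nearest tested genes on each side; around both STAT5 genes their median log2 fold change was -0.16, which left -0.078 for Stat5b and 0.15 for Stat5a (adjusted p = 0.101). STAT5A and STAT5B are close paralogs, so the authors' counting may have split reads between them. The annotated end of Stat5a overlaps that of Stat3 on the opposite strand, and whether counting used strand is not given in the sources used here.

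**Figure D2:**
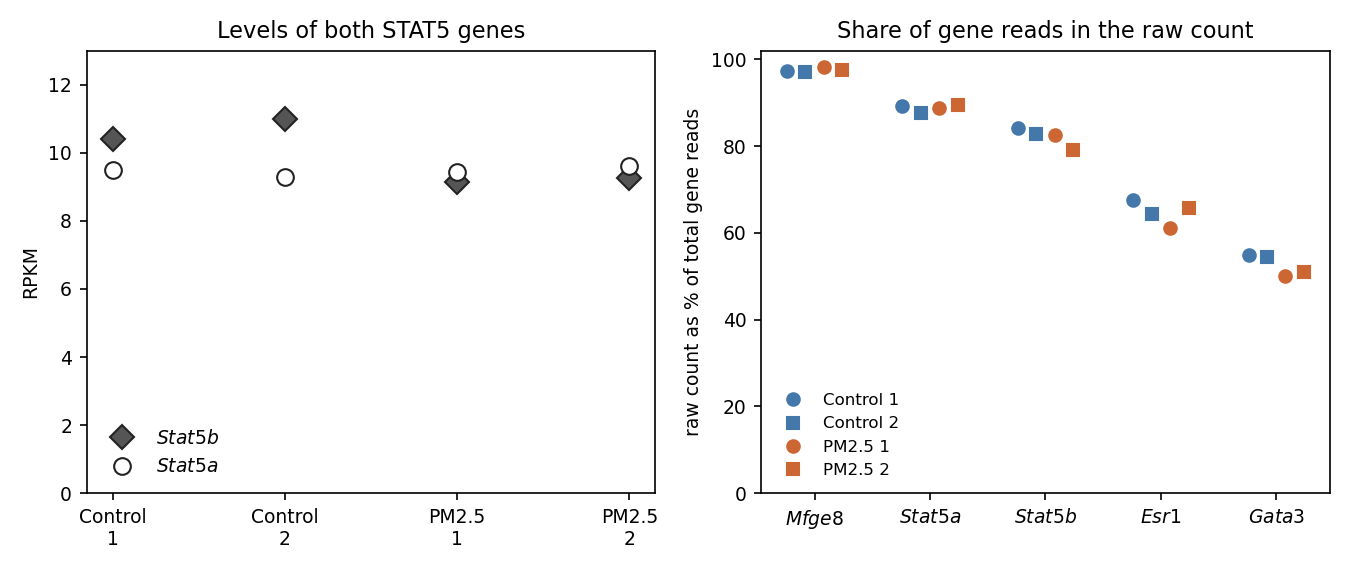
Left, RPKM of Stat5b (filled diamonds) and Stat5a (open circles) in each library. Right, the raw count as a percentage of the total gene reads deposited for the same gene, 1 point a library (blue Control, orange PM2.5). Stat5b lies above Stat5a in both Control libraries and below it in both PM2.5 libraries, and Gata3 has the lowest counted share, 50% to 54.8%.

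Of the lineage factors, Gata3 was well above the limit and Foxa1 and Elf5 were not. Gata3 (ENSMUSG00000015619, chromosome 2, 9861889 to 9894845, minus strand) had 98.0 and 94.1 CPM in Control and 91.3 and 94.6 CPM in PM2.5, and the groups overlapped. Its means were 96.1 ± 2.78 and 93.0 ± 2.35 CPM, with a log2 fold change of -0.05 and a 95% interval of -0.18 to 0.09 (edgeR adjusted p = 0.579). That interval does not reach the change measured for Esr1 or for Stat5b. The 95% interval of Stat5b, -0.38 to -0.09, overlaps it, and differences between members were not tested. Foxa1 (ENSMUSG00000035451, chromosome 12, 57587414 to 57593702, minus strand) had 0 counts in every library, which by the limit of 3 counts allows up to 0.0355 CPM over the 4 together. Elf5 (ENSMUSG00000027186, chromosome 2, 103242033 to 103281334, plus strand) had 0 and 1 counts in Control and 2 and 0 in PM2.5, under 3 counts in each library.

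Gata3 had the lowest share, among the measured members, of reads that entered the count. A second deposited number, total gene reads, was never below the raw count of a gene, and its header does not define the difference. For Gata3 the raw count was 54.8% and 54.5% of total gene reads in Control and 50% and 51.0% in PM2.5. Over all genes these shares were 90.19%, 89.47%, 88.34% and 88.41%, so both PM2.5 libraries were lower there as well. Of the tested genes, 8.49% had a smaller counted share than Gata3, whose share over all libraries was 52.6% against a median of 87.4%. The shares of the other members over all libraries were 64.4% for Esr1, 82.3% for Stat5b, 88.7% for Stat5a and 97.6% for Mfge8. No other gene model in the table overlaps Gata3, Esr1, Stat5b or Mfge8. With total gene reads in place of the counts, the calls on Esr1 (log2 fold change 0.38), Mfge8 (0.18) and Stat5b (-0.23) remained, and Gata3 stood at 0.024 (edgeR adjusted p = 0.76).

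The milk-related members were at opposite ends of the range. Mfge8 (ENSMUSG00000030605, chromosome 7, 78783516 to 78798808, minus strand) had 164 and 158 CPM in Control and 186 and 194 CPM in PM2.5, with no overlap. It rose from 161 ± 4.13 to 190 ± 6.29 CPM (SD, n = 2 each), which is 1.18-fold or 0.24 on the log2 scale (SE 0.057, adjusted p = 0.00781 by edgeR). The call ended without PM2.5 replicate 2 (log2 fold change 0.20, adjusted p = 0.0947) and with the positional correction (0.15, adjusted p = 0.0687), where the neighbours had a median of 0.09. Csn2 (ENSMUSG00000063157, chromosome 5, 87840483 to 87847489, minus strand) had 0 counts in every library and 0 total gene reads. A count of 0 allows 0.116 to 0.158 CPM per library, or 0.0355 CPM over the 4 together.

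**Figure D3:**
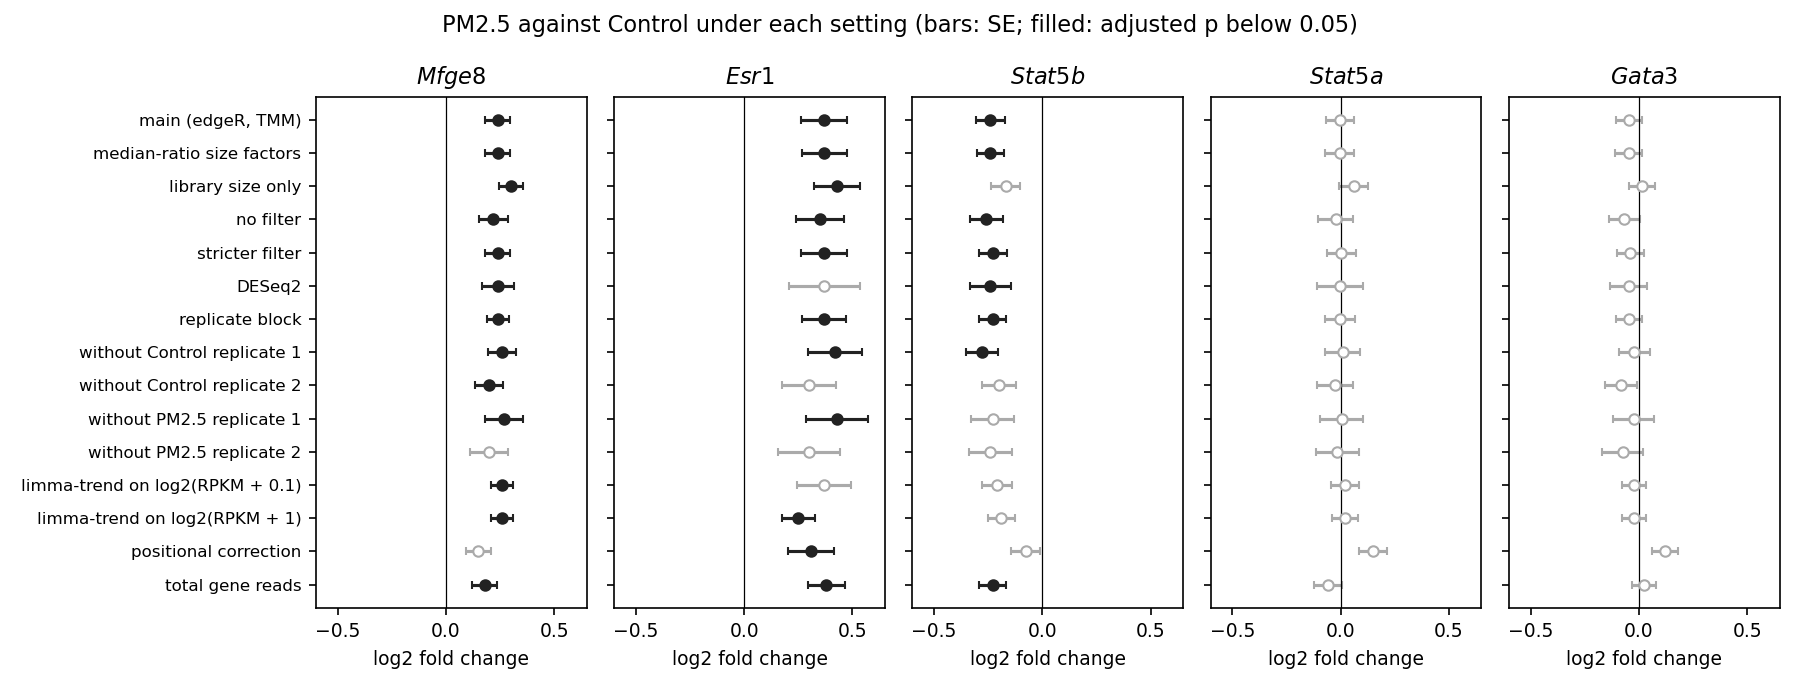
Log2 fold change of the 5 tested members, PM2.5 against Control, under the main setting and each alternative; bars are the standard error and filled points have an adjusted p below 0.05. Mfge8 and Esr1 lie above 0 and Stat5b below 0 under every setting drawn, while Stat5a and Gata3 lie on both sides of 0.

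Of the 5 tested members, 2 were higher and 1 lower in PM2.5, against 19.2% and 20.4% of all tested genes, and 3 had groups that did not overlap, 2 above and 1 below, against 71.0% (35.9% and 35.1%). The 3 called members differed 1.18- to 1.29-fold, and the median of the 5 was that of Stat5a, against 0.006 over all tested genes. Without PM2.5 replicate 2, 0 members were higher and 0 lower.

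Further genes of the prolactin receptor and JAK-STAT route were measured in nearly full number. Of 30 such genes 27 were tested, and in PM2.5 10 of them were higher and 5 lower, against 19.2% and 20.4% of all tested genes. The median log2 fold change of the 27 was 0.13. Jak2, the kinase bound to the prolactin receptor, had 56.1 and 54.6 CPM in Control and 147 and 141 CPM in PM2.5. It rose 2.61-fold, which is 1.38 on the log2 scale (SE 0.062, adjusted p = 2.08e-07 by edgeR), with a median of 0.26 among its neighbours on chromosome 19. Tyk2 rose from 31.8 to 42.2 CPM, while Jak1, the most abundant gene of the list per length at 51.9 RPKM, fell from 340 ± 3.54 to 275 ± 1.47 CPM. The neighbours of Jak1 had a median of -0.32, and its log2 fold change went from -0.30 to 0.02 with the positional correction.

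Stat6, a STAT factor which transmits interleukin 4 signals, fell from 149 to 132 CPM, a call lost in 8 of the 14 alternatives, DESeq2 among them (adjusted p = 0.0702). Phosphatases went both ways: Ptpn6, which damps cytokine receptors, rose from 2.42 to 6.49 CPM (1.41 on the log2 scale, and 0.80 with limma-trend on log2(RPKM + 1)). Ptpn11, which relays receptor signals, fell from 306 to 259 CPM, a call that was lost without PM2.5 replicate 1 (adjusted p = 0.0599). The adaptor Shc1 rose from 153 to 171 CPM, but DESeq2 did not call it (adjusted p = 0.105) and leaving out any 1 library ended the call. The feedback inhibitors went both ways. Socs7 fell from 55.5 to 47.6 CPM and was called lower by edgeR (adjusted p = 0.0304) but not by DESeq2 (0.1). Socs1, Socs4, Socs5 and Socs6 were not called. Socs2 had 13.3 and 17.0 CPM and Socs3 36.2 and 44.8 CPM, and both were called higher. All of these inhibitors were named after their values were seen. The call on Socs2 ended with DESeq2 (adjusted p = 0.103), and leaving out a library ended the calls on Socs2 and Socs3 at least once each. Socs3 stood at 0.19 on the log2 scale without Control replicate 1, against 0.30. With PM2.5 replicate 2 left out, the list had 5 genes higher and 3 lower; it had 3 lower without Control replicate 1 and 2 without PM2.5 replicate 1.

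Steroid receptors other than Esr1, their coregulators and hormone-responsive genes were listed as 31 genes, of which 24 were tested. In PM2.5, 9 were higher and 6 lower (19.2% and 20.4% of all tested genes), with a median log2 fold change of 0.06 in the list. Igfbp4, a secreted binder of insulin-like growth factors, had 779 and 747 CPM in Control and 1283 and 1496 CPM in PM2.5, a difference of 0.86 on the log2 scale (SE 0.074, adjusted p = 1.67e-05 by edgeR). Pgrmc1, a membrane haem-binding protein named for progesterone binding, rose from 121 ± 0.482 to 181 ± 11.2 CPM. Xbp1, a factor of secretory cells, rose from 58.2 to 79.6 CPM and the cyclin gene Ccnd1 from 487 to 605 CPM. For Xbp1 the positional correction took 0.45 on the log2 scale to 0.68. Fkbp4, a co-chaperone of steroid receptors, fell from 328 ± 21.3 to 241 ± 9.21 CPM. Med1, a Mediator subunit that nuclear receptors contact, fell from 194 to 157 CPM, which the positional correction took to -0.12 on the log2 scale (adjusted p = 0.125). Cxcl12, a chemokine gene with 85.1 RPKM, had 711 and 742 CPM and was not called. Other hormone-responsive genes of the list differed widely in level. Areg had 34 and 51 counts in Control and 93 and 55 in PM2.5, and was called higher (0.97 on the log2 scale, adjusted p = 0.0177 by edgeR). Id2 had 16.7 and 18.6 CPM and was not called, and Greb1 and Wnt4 held 8 and 11 counts over the 4 libraries. Tff1, Tff3, Tnfsf11 and Calca had 0 counts in every library. Areg, Id2, Greb1 and Wnt4 were named after their values were seen. Tnfsf11 and Calca are progesterone-responsive in the mammary gland, and a link between their 0 counts and the level of Pgr was not tested. Without PM2.5 replicate 2 the list had 5 genes higher, and without PM2.5 replicate 1 it had 3 lower.

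Genes of the main milk proteins were at or near 0 counts, while several genes of milk secretion with wider roles were abundant. Of 26 such genes 9 had 0 counts in every library: Csn1s1, Csn1s2a, Csn1s2b, Wap, Lalba, Glycam1, Olah, Trf and Cidea. The first 5 encode caseins and whey proteins. The casein gene Csn3 and the lactoferrin gene Ltf held 7 and 16 counts over the 4 libraries. PM2.5 was higher for 3 and lower for 4 of the 10 tested, against 19.2% and 20.4% of all tested genes. The median log2 fold change of the 10 was -0.15. Lcn2, a siderophore-binding protein of milk and inflamed epithelium, had 273 and 424 CPM in Control and 734 and 845 CPM in PM2.5, a difference of 1.18 on the log2 scale (SE 0.155, adjusted p = 2.34e-04 by edgeR). Xdh, the oxidoreductase of the milk fat globule, rose from 364 ± 55.1 to 450 ± 2.11 CPM, 0.31 on the log2 scale, and stood at 0.16 when Control replicate 1 was left out (adjusted p = 0.0512). The zinc transporter Slc30a4 fell from 330 ± 6.57 to 222 ± 7 CPM, the water channel Aqp5 from 180 ± 22.8 to 115 ± 0.339 CPM and the transferrin receptor Tfrc from 359 to 230 CPM. For Tfrc the positional correction took -0.64 on the log2 scale to -0.42. Spp1, the osteopontin gene and the most abundant of the list at 1170 RPKM, had 2561 ± 426 and 2048 ± 148 CPM. It was called lower at -0.32 on the log2 scale, but not by DESeq2 (adjusted p = 0.18). Leaving out Control replicate 2 gave -0.15 (adjusted p = 0.0677), Control replicate 1 -0.49 and PM2.5 replicate 1 -0.25 (adjusted p = 0.103).

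**Figure D4:**
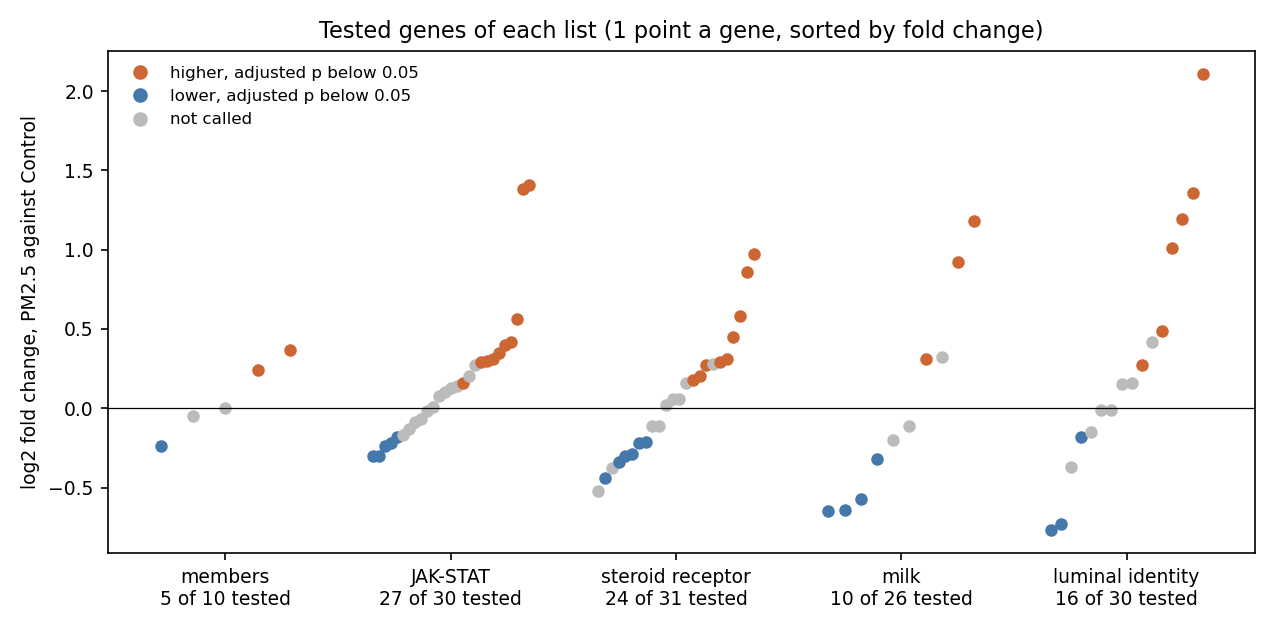
Log2 fold change, PM2.5 against Control, of the tested genes of the members and of 4 further lists; each point is 1 gene, sorted within its list, and colour marks the call (orange higher, blue lower, grey not called). The members span -0.24 to 0.37, while the lists reach from -0.77 for Ly6a to 2.11 for Grhl2, which passed the low-count filter only through its PM2.5 libraries.

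The label of a mammary epithelial cell was set against luminal, basal, fibroblast and other markers. Of 30 luminal identity genes 8 had 0 counts in every library, namely Krt18, Krt19, Epcam, Tfap2c, Kit, Prom1, Cited4 and Bcl11a, and 14 had a mean of 1 CPM or more. The luminal keratins Krt18 and Krt19 and the epithelial adhesion gene Epcam were thus not detected, while Gata3, Stat5a, Stat5b and Mfge8 were. Of the same list, the keratins Krt7 and Krt8 and the cadherin gene Cdh1 held 6, 33 and 11 counts over the 4 libraries. Each of these had a mean under 1 CPM in both groups. The summed level of the luminal identity list was 153 and 172 RPKM in Control and 136 and 147 RPKM in PM2.5. Of 13 basal and myoepithelial markers, 5 had a mean of 1 CPM or more and Krt5 and Lgr5 were at 0. That list summed to 45.5 and 43.4 RPKM in Control and 25.5 and 24.5 RPKM in PM2.5. Of 21 fibroblast and mesenchymal markers, 18 had a mean of 1 CPM or more and only Fap was at 0. Their sum was 2888 and 2972 RPKM in Control against 2230 and 2367 RPKM in PM2.5. Of 14 endothelial, immune and adipocyte markers 3 had a mean of 1 CPM or more, with Cd3e and Adipoq at 0, and their sum was 29.5 and 34.0 RPKM in Control and 49.1 and 49.6 RPKM in PM2.5. Each sum rests mostly on a few abundant genes and does not describe its list as a whole. Mean RPKM in Control and PM2.5 was 49.8 and 29.8 for Ly6a in the luminal list and 25.5 and 9.79 for Krt14 in the basal list. For Lpl, in the list of other cell types, it was 28.5 and 38.0 RPKM. The part of these marker levels in the changes of the members was not tested. Fewer cells of a type and less RNA per cell cannot be told apart in bulk libraries.

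**Figure D5:**
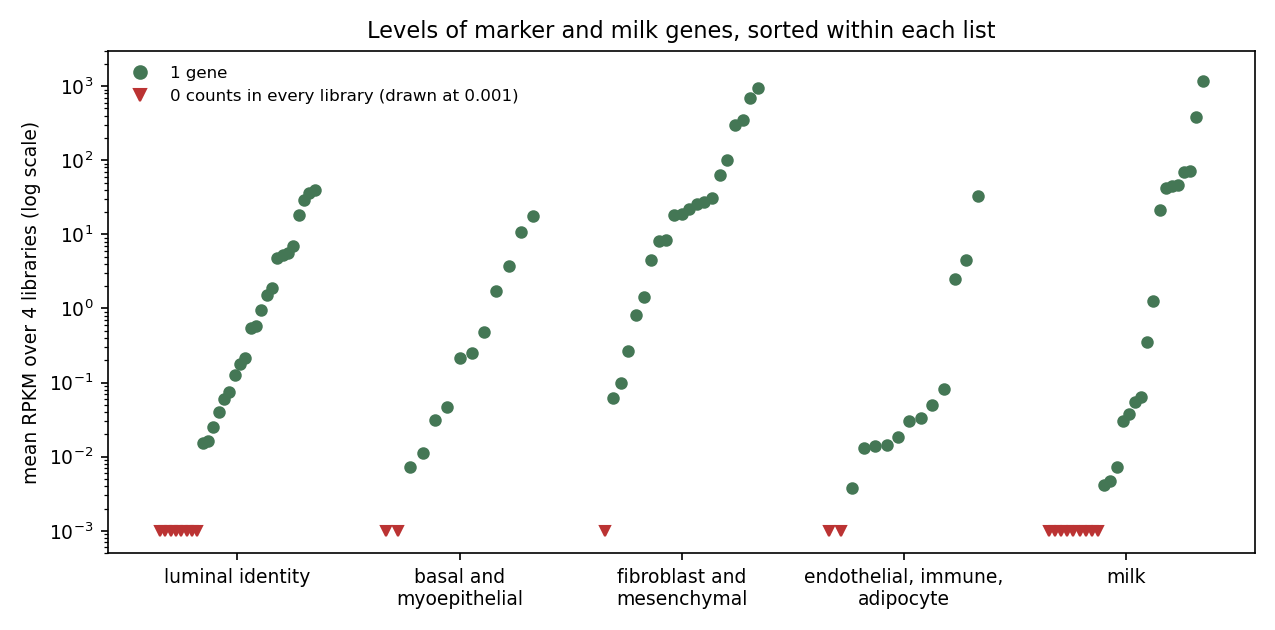
Mean RPKM over 4 libraries (log scale) of each gene in the luminal, basal, fibroblast, other cell type and milk lists, sorted within each list; red triangles are genes with 0 counts in every library, drawn at 0.001. The luminal list has 8 such genes and the milk list 9, while the fibroblast list has 1 and reaches 950 RPKM at S100a4.

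Luminal identity genes that were measured changed in both directions. PM2.5 was higher for 6 and lower for 3 of the 16 tested, against 19.2% and 20.4% of all tested genes. The 6 include Grhl2, which passed the low-count filter only through its PM2.5 libraries, so the number higher carries that selection. It was 5 with the stricter filter, which drops Grhl2, 4 with DESeq2, and 7 with library size only or no filter. The median log2 fold change of the 16 was 0.16. Tbx3, a transcription factor of mammary development, rose from 20 ± 1.5 to 40.4 ± 1.65 CPM, which is 1.01 on the log2 scale (SE 0.084, adjusted p = 1.53e-05 by edgeR). The epithelial ETS factor Ehf rose from 1.83 to 4.76 CPM and the receptor Notch1 from 14.9 to 21.0 CPM. Ly6a, the Sca-1 surface antigen gene, had 67.5 and 76.8 CPM in Control and 38.1 and 47.0 CPM in PM2.5, a difference of -0.77 on the log2 scale. Zfpm1, which encodes a cofactor of GATA proteins, fell from 26.5 to 15.9 CPM, or by 0.73 on the log2 scale. Its neighbours had a median of -0.32, and its value was -0.42 with the positional correction and -0.50 with total gene reads, both still called by edgeR. Cbfb, the partner of RUNX factors, fell from 132 to 116 CPM. DESeq2 did not call it (adjusted p = 0.0772), and the positional correction gave 0.16 on the log2 scale (adjusted p = 0.0637). Sox9 and Cd14 were not called, at 90.6 and 90.1 CPM and at 60.6 and 55.0 CPM. Without PM2.5 replicate 2 the list had 3 genes higher.

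In the basal list 1 of 7 tested genes was higher and 2 lower, against 19.2% and 20.4% of all tested genes. Krt14, the basal keratin, fell from 52.0 ± 1.43 to 19.7 ± 1.52 CPM, which is -1.40 on the log2 scale (SE 0.08, adjusted p = 1.12e-06 by edgeR), and the repressor Snai2 fell from 32.7 to 18.5 CPM. For Snai2 the positional correction took -0.82 on the log2 scale to -0.51. Mylk, the myosin light chain kinase, rose from 26.9 to 44.1 CPM, and Procr had 3.30 CPM in both groups. In the fibroblast list 4 of 18 were higher and 8 lower, against the same 19.2% and 20.4%. Vim, the intermediate filament of mesenchymal cells, fell from 2197 to 1470 CPM, the matrix protein gene Postn from 150 to 66.4 CPM and S100a4 from 749 to 576 CPM. Dcn, the decorin gene, rose from 63.9 to 251 CPM and the collagen gene Col3a1 from 2.62 to 8.26 CPM. With limma-trend on log2(RPKM + 1), the log2 differences of the low genes Ehf, Col3a1 and Fabp4 were 0.47, 0.69 and 1.97, against 1.36, 1.65 and 3.43. In the list of other cell types 3 of 4 tested genes were higher, against 19.2% of all tested genes. These were the lysosomal Cd68 from 3.93 to 9.67 CPM, the lipase gene Lpl from 148 to 195 CPM and the fatty acid binder Fabp4 from 0.443 to 4.84 CPM. Fabp4 passed the low-count filter only through its PM2.5 libraries, the group where it is high.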

How the data were processed

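The authors deposited raw counts per gene, without normalization, and RPKM for each library, with the total gene reads of each gene in a second count column, per the file headers. The build is GRCm39 per the submitters' processing notes; the sources used here do not give the aligner, counting program, annotation release or use of strand. Each stranded Illumina mRNA library was made from 750 ng of RNA, per the labels' protocols.

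Counts were tested with edgeR 4.0.16 in R 4.3.3: filterByExpr, TMM factors (0.973, 0.984, 1.02 and 1.024), the quasi-likelihood F test in an unpaired design, and Benjamini-Hochberg adjustment over 12478 genes. Standard errors were derived from the log2 fold change and the square root of its F statistic. Total counts ranged from 18548478 to 26206329. Limits, and intervals on summed counts and on count ratios, cover counting error only. Intervals on a log2 fold change rest on its standard error from the quasi-likelihood fit, which includes the estimated spread between libraries.

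The members and lists were chosen with earlier results of these data known. All members are named. From the other 7 lists the rule takes up to 5 called genes with the smallest p-values and no overlap between groups. It also takes up to 4 with the highest RPKM, and genes at 0. Outside this rule, the Socs genes, Areg, Id2, Greb1, Wnt4, Krt7, Krt8, Cdh1, Csn3, Ltf, Cish and Grhl2 were named after their values were seen. Some list genes are not reported here. Alternatives were median-ratio factors, library size only, no filter, a stricter filter (1 CPM in 2 libraries, 50 counts), DESeq2 1.42.0, a replicate block, each library left out, limma-trend (limma 3.58.1) on log2(RPKM + 0.1) and log2(RPKM + 1), and a positional correction. Total gene reads in place of counts was added after seeing the data. Promoter windows are RefSeq's for GRCm38.p6; no coordinates were converted.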

Additional observations from a re-analysis of the deposited data

How the results depend on the processing

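The number of members higher in PM2.5, 2 in the main test, was 1 with DESeq2, limma-trend on log2(RPKM + 0.1) and the positional correction, and 0 to 2 when 1 library was left out. The number lower, 1, was 0 with library size only, either limma-trend fit and the positional correction, and 0 to 1 with 1 library left out. The JAK-STAT list had 5 to 11 genes higher (10 in the main test) and 2 to 6 lower (5) with 1 library left out. It had 3 lower with library size only, DESeq2 and either limma-trend fit, and 2 with the positional correction. The steroid receptor list had 5 to 8 higher (9) and 3 to 6 lower (6) with 1 library left out, and 2 lower with the positional correction. The milk list had 5 higher (3) with the positional correction. The luminal identity list had 3 to 7 higher (6) with 1 library left out. Stat5a, with no call under any setting, was above 0 on the log2 scale at 0.06 with library size only, 0.0036 with the stricter filter, 0.02 and 0.018 with limma-trend, and 0.15 with the positional correction, and ran from -0.027 to 0.0096 with 1 library left out. Gata3 was above 0 at 0.016, 0.12 and 0.024 with library size only, the positional correction and total gene reads. The cause of these shifts was not tested, except that leaving out a library leaves fewer samples.

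Over all genes, 4945 were called in the main test, 3509 with DESeq2, and 3196 without PM2.5 replicate 2. Library size only gave 3079 higher and 1880 lower against 2400 and 2545, a shift of the median from 0.006 to 0.069. With the replicate block, 5773 genes were called and the members stayed at 2 higher and 1 lower. The replicate numbers are shared only by label, and the deviations of same-numbered libraries correlated at 0.124 across 12478 genes. The 5 members that did not pass the filter had under 3 counts in each library, and depth allows only upper limits for them. Over the 4 libraries together, exact 95% Poisson intervals ended at 0.0437 CPM for Foxa1 and Csn2. They ended at 0.066 CPM for Pgr and Prlr and at 0.104 CPM for Elf5.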

Other observations

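Cish, Krt8 and Csn3 did not pass the low-count filter of the main test, and the genes named here were chosen after their values were seen. Without the filter, edgeR's log2 fold change was 3.4 for Cish (adjusted p = 0.00445), 2.95 for Krt8 (0.00134) and 4.95 for Csn3 (0.0836). Adjusted p-values of that fit cannot be set beside those of the main test. For Dcn, edgeR without the filter gave 3.79e-169 at a log2 fold change of 1.94, against 7.92e-05 at 1.96 in the main test. Without Control replicate 1 the adjusted p was 0.0573 for Cish and 0.0416 for Krt8. Fitted values at such counts depend on the prior count. Cish, whose promoter letters are shown with those of Csn2, had 0 and 2 counts in Control and 9 and 12 in PM2.5. Scaled to library size this is a ratio of 11.9, with a 95% counting interval of 2.9 to 104 that does not cover the spread between libraries. Krt8, a keratin of luminal cells, had 1 and 3 counts in Control and 9 and 20 in PM2.5, a ratio of 8.2 with a counting interval of 2.88 to 32.1. Its partner Krt18 had 0 counts in all 4 libraries. Csn3, the gene of kappa-casein, had 0, 0, 0 and 7 counts, all in PM2.5 replicate 2. Grhl2, an epithelial transcription factor, passed the filter with 2 and 6 counts in Control and 12 and 19 in PM2.5. It passed only through the PM2.5 libraries, the group where it is high, so its call carries that selection. It was called higher by edgeR (adjusted p = 0.0149) but not by DESeq2 (0.0802) or without PM2.5 replicate 2 (0.195).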
